A study of Mus musculus with 18 samples.

Results

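The 10 genes described here encode the signalling subunits of the T cell receptor complex (Cd3d, Cd3e, Cd3g and Cd247), the chains of its CD8 coreceptor (Cd8a and Cd8b1) and markers of lymphocytes that live in the gut lining (Itgae, Ccl5, Cd7 and Il2rb). They were taken by name from the array's gene symbols, and all 10 were found, each with 1 probe set, among 19938 genes measured. Expression was measured on 1-colour microarrays in cells of mouse small intestinal crypts, sorted by the brightness of a Fltp-Venus reporter (FVR) for Flattop, whose gene is Cfap126. Every sample came from 4-month-old C57Bl6/J mice of genotype FltpZV/+, so the control cells carried the reporter allele too. The gates were reporter-high, reporter-low and reporter-negative, with 2 arrays per gate and RNA pooled from 2 animals on every array. The labels name no sort by a lymphocyte or epithelial surface marker. Whether equally numbered pools of different gates share animals is not stated. The comparisons ask how the transcripts of these genes are distributed over the gates.

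The T cell receptor recognises antigen but cannot signal by itself. It depends on CD3 gamma, delta and epsilon and on the zeta chain, whose tails carry tyrosine motifs that are phosphorylated when the receptor is engaged. The gut lining is populated by intraepithelial lymphocytes, T cells that sit between epithelial cells and are largely CD8-positive. Many of them carry CD8 as an alpha-alpha homodimer rather than the alpha-beta heterodimer of conventional cytotoxic T cells, and many carry the gamma-delta form of the receptor. Integrin alpha E, encoded by Itgae, anchors them to E-cadherin on the epithelium, and interleukin-15, read through the receptor chain encoded by Il2rb, sustains them.

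The CD3 genes are neighbours on mouse chromosome 9, in the order Cd3g, Cd3d, Cd3e, with Cd3g and Cd3d on opposite strands, whereas Cd247 lies on chromosome 1. Their promoters are shown because the CD3 genes moved together over the gates while Cd247 did not. The RefSeq promoter table (GRCm38.p6), which gives the 250 bases before and 50 bases after a gene's start, matched 5 of the 10 genes, these and Cd8a. The windows are chr9:44980382-44980681 for Cd3g (minus strand), chr9:44981536-44981835 for Cd3d (plus strand), chr9:45009562-45009861 for Cd3e (minus strand) and chr1:165788431-165788730 for Cd247 (plus strand). Capitals mark matches to the T-box motif AGGTGT and the Ets motif AGGAAG, each searched on both strands, so that ACACCT and CTTCCT are the same motifs read from the other strand. No 2 capitalised matches overlap.
Cd3g: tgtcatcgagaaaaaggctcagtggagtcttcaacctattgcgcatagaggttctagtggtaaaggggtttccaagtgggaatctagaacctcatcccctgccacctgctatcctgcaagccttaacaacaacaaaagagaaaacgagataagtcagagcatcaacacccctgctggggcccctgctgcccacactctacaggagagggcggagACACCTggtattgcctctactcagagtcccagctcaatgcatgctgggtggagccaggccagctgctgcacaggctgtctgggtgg
Cd3d: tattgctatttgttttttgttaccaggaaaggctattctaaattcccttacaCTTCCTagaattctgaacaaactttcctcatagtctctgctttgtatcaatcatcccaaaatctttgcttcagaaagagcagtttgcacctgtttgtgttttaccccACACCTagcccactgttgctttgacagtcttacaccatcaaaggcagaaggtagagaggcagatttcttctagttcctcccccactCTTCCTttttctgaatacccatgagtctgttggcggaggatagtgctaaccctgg
Cd3e: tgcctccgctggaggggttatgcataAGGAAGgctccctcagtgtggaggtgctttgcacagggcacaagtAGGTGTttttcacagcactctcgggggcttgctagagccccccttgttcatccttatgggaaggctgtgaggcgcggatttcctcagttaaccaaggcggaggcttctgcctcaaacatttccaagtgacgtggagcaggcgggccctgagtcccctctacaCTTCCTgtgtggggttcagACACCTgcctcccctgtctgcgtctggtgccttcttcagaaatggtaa
Cd247: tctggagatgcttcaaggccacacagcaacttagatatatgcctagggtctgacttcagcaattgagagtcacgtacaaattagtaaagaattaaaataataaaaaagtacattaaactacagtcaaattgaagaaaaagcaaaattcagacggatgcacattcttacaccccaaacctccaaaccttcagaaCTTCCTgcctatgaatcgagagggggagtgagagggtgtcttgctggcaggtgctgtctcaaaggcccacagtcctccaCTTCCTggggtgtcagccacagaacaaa

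The T-box letters stood in the Cd3g, Cd3d and Cd3e windows, with 1, 1 and 2 matches, and were not in the Cd247 window or that of Cd8a. Of all 32851 promoter windows in the table, 13.74% held them. The Ets letters stood in the Cd3d, Cd3e and Cd247 windows, with 2 matches each, and in 35.35% of all windows. Of the other motifs searched on both strands, that of the GATA factors, spelled AGATAA, was in the Cd3g window and in 11.18% of all windows. The E-box CAGCTG was in the Cd8a and Cd3g windows and in 16.3% of all windows. The Runx letters TGTGGT were in none of the 5 windows and in 16.76% of all windows. Matches to these other motifs are not capitalised above. All these matches describe the letters only, and whether any of them bears on the gate pattern was not tested.

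The values are RMA values on the log2 scale, on which a difference of 1 is 2-fold. RMA is the array summary that puts the probe values of all arrays on one distribution and then combines the probes of a probe set. The combined values need not share one distribution. The median over probe sets lay between 4.54 and 4.74 on the 6 arrays. Correlations across genes were 0.946 for the reporter-high pair, 0.975 for the reporter-low pair and 0.981 for the reporter-negative pair. A background level of 4.23 was set from olfactory and related receptor genes, and 65.6% and 69.6% of genes lay above it on the reporter-high arrays, 62.8% and 63.1% on the reporter-low arrays and 61.4% and 62.5% on the reporter-negative arrays. All 10 genes were above it on every array, the lowest value being 4.52 for Cd8b1. The epithelial surface gene Epcam, chosen to check the tissue label, read 9.68 and 9.40 in high cells, 9.45 and 9.42 in low cells and 9.98 and 9.85 in negative cells. The reporter's own gene, Cfap126, read 5.15 and 5.0 in high cells, 5.16 and 6.13 in low cells and 5.39 and 4.79 in negative cells. It passed no test, with limma adjusted p = 0.983 in high against negative, 0.528 for low against negative cells and 0.366 for high against low cells.

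Transcripts of 8 of the 10 genes were highest in reporter-low cells, intermediate in reporter-negative cells and lowest in reporter-high cells. These 8 are Cd3d, Cd3e, Cd3g, Cd8a, Itgae, Ccl5, Cd7 and Il2rb, and for each of them both low arrays lay above both negative arrays, which lay above both high arrays. Of all 19938 genes, 642 (3.22%) had this order without overlap. Cd247 and Cd8b1 did not follow it. In sorted bulk samples, fewer cells of a type and less RNA per cell cannot be told apart.

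**Figure D1:**
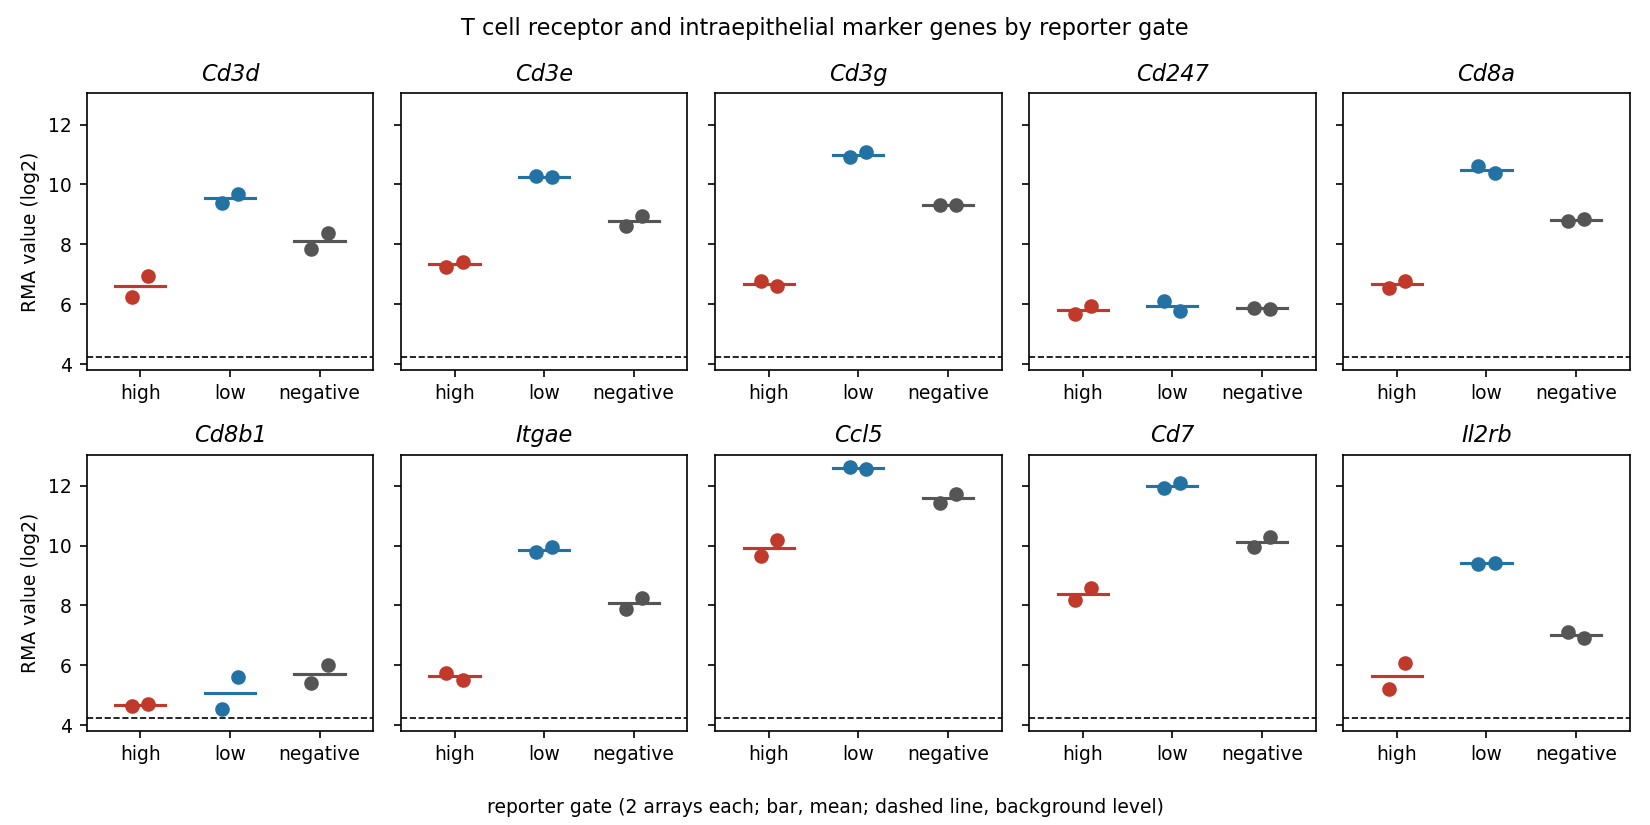
RMA value (log2) of each gene in reporter-high, reporter-low and reporter-negative cells; points are the 2 arrays of a gate, bars their mean and the dashed line the background level of 4.23. Low arrays are above negative arrays and negative above high arrays in 8 panels, whereas Cd247 is level and the Cd8b1 arrays of the low gate are 1.07 apart.

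The CD3 subunits carried the pattern of the receptor complex. Cd3g, the gamma chain, which pairs with epsilon, read 6.76 and 6.61 in high cells, 10.92 and 11.08 in low cells and 9.32 on both negative arrays. The gates were far apart relative to the gaps within them. Cd3g was 3.21-fold higher in low than in negative cells (log2 change 1.68 ± 0.18, SE; limma adjusted p = 0.00461). It was 6.20-fold lower in high than in negative cells (-2.63 ± 0.18, adjusted p = 0.00358) and 19.9-fold lower in high than in low cells (-4.31 ± 0.18, adjusted p = 0.000308). That last change was the largest of any of the 10 genes in any of the 3 comparisons.

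Cd3e, the epsilon chain shared by both CD3 heterodimers, read 7.24 and 7.42 in high cells, 10.27 and 10.25 in low cells and 8.60 and 8.94 in negative cells. No array of one gate reached the range of another. Cd3e was higher in low than in negative cells by 1.49 ± 0.20 (SE; limma adjusted p = 0.00943). It was lower in high cells, by a log2 change of -1.44 ± 0.20 against negative (adjusted p = 0.0182) and -2.93 ± 0.20 against low cells (adjusted p = 0.000844).

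Cd3d, the delta chain, read 6.23 and 6.96 in high cells, 9.38 and 9.70 in low cells and 7.84 and 8.36 in negative cells. Its arrays were further apart within gates than those of the other CD3 genes, with an SD of 0.52 in the high gate. It was 2.70-fold higher in low than in negative cells (log2 change 1.43 ± 0.31, SE; limma adjusted p = 0.0453) and 2.85-fold lower in high than in negative cells (-1.51 ± 0.31, adjusted p = 0.0450). Both values were close to the threshold of 0.05, and both were lost under several other settings given in the closing section. High cells were 7.69-fold below low cells (-2.94 ± 0.31, adjusted p = 0.00403).

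Cd247, the zeta chain that completes the complex and carries most of its tyrosine motifs, behaved otherwise. It read 5.67 and 5.94 in high cells, 6.11 and 5.78 in low cells and 5.89 and 5.83 in negative cells. The gates overlapped. The difference between high and negative was -0.05 (95% interval -0.54 to 0.44; limma adjusted p = 0.899), that between low and negative 0.09 (-0.40 to 0.58; 0.923) and that between high and low -0.14 (-0.63 to 0.35; 0.692). In high against low, the interval for Cd247 did not reach the log2 changes of the 3 CD3 genes, whose estimates lay between -4.31 and -2.93.

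Fcer1g encodes a chain related to zeta that serves Fc receptors and can take the place of zeta in receptor complexes of mouse intraepithelial lymphocytes. It is listed here among myeloid genes, which also use it. It read 6.53 and 6.82 in high cells, 10.21 and 10.62 in low cells and 7.91 and 8.38 in negative cells. These values follow the order of the CD3 genes. Fcer1g was higher in low than in negative cells by 2.27 ± 0.25 (SE; limma adjusted p = 0.00506), with log2 changes of -1.47 ± 0.25 in high against negative (adjusted p = 0.0281) and -3.74 ± 0.25 in high against low cells (adjusted p = 0.000805). Without negative replicate 1 the first of these calls was lost (adjusted p = 0.0572), and that in high against negative was lost without any 1 high or negative array.

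Of the coreceptor chains, Cd8a had the order of the CD3 genes and Cd8b1 did not. Cd8a, the alpha chain, which alone can form the homodimer, read 6.54 and 6.79 in high cells, 10.61 and 10.40 in low cells and 8.78 and 8.84 in negative cells. The 3 gates were separate. Cd8a was 3.23-fold higher in low than in negative cells (log2 change 1.69 ± 0.19, SE; limma adjusted p = 0.00558). It was 4.44-fold lower in high than in negative cells (-2.15 ± 0.19, adjusted p = 0.00641) and 14.3-fold lower in high than in low cells (-3.84 ± 0.19, adjusted p = 0.000442).

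Cd8b1, the beta chain of the heterodimer and the neighbour of Cd8a on chromosome 6, read 4.63 and 4.72 in high cells, 4.52 and 5.59 in low cells and 5.40 and 6.00 in negative cells. The low arrays spanned the high arrays and reached into the negative range, and high cells lay below negative cells. Cd8b1 passed no test. Its log2 change was -0.64 in low against negative (95% interval -1.53 to 0.25; limma adjusted p = 0.468), -1.02 in high against negative (-1.91 to -0.13; 0.175) and -0.38 in high against low (-1.27 to 0.51; 0.547). The interval in low against negative ended below the 3 estimates for the CD3 genes and that for Cd8a. Both high arrays and low replicate 1 were nearer to the background level than the other 3 arrays.

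Of the intraepithelial markers, Itgae, the integrin alpha E chain (CD103), had the largest changes in both comparisons of high cells, though not in low against negative. It read 5.76 and 5.51 in high cells, 9.78 and 9.96 in low cells and 7.89 and 8.24 in negative cells. Low cells were 3.49-fold above negative cells (log2 change 1.80 ± 0.21, SE; limma adjusted p = 0.00606). High cells were 5.39-fold below negative cells (-2.43 ± 0.21, adjusted p = 0.00620) and 18.8-fold below low cells (-4.23 ± 0.21, adjusted p = 0.000442).

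Cd7, a surface protein of the immunoglobulin superfamily on T and natural killer cells, read 8.17 and 8.58 in high cells, 11.92 and 12.09 in low cells and 9.96 and 10.29 in negative cells. Its gates did not overlap. It was 3.69-fold higher in low than in negative cells (log2 change 1.88 ± 0.23, SE; limma adjusted p = 0.00646), 3.36-fold lower in high than in negative cells (-1.75 ± 0.23, adjusted p = 0.0166) and 12.4-fold lower in high than in low cells (-3.63 ± 0.23, adjusted p = 0.000711).

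Il2rb, the beta chain shared by the receptors for interleukin-2 and interleukin-15, read 5.20 and 6.08 in high cells, 9.40 and 9.43 in low cells and 7.10 and 6.91 in negative cells. It had the largest increase of the 10 genes in low against negative, 5.30-fold (log2 change 2.41 ± 0.30, SE; limma adjusted p = 0.00703). The high arrays were 0.88 apart, the widest gap of the 10 genes in that gate, and the change of -1.36 ± 0.30 in high against negative did not pass (95% interval -2.07 to -0.66; adjusted p = 0.0529). High cells were 13.7-fold below low cells (-3.77 ± 0.30, adjusted p = 0.00144).

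Ccl5, a chemokine made by activated and memory CD8 T cells, read 9.64 and 10.20 in high cells, 12.62 and 12.56 in low cells and 11.44 and 11.72 in negative cells. The gates were in the same order as for the other markers. The increase of 1.01 ± 0.24 in low against negative did not pass (95% interval 0.44 to 1.58; limma adjusted p = 0.0620). High cells were 3.16-fold below negative cells (log2 change -1.66 ± 0.24, SE; adjusted p = 0.0197) and 6.37-fold below low cells (-2.67 ± 0.24, adjusted p = 0.00218).

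In low against negative cells, 7 of the 10 genes rose and 0 fell, where 3.42% of all genes rose and 2.54% fell (limma adjusted p under 0.05). The median log2 change was 1.59 over the 10 genes and -0.03 over all genes. In high against negative cells 7 fell and 0 rose, where 3.35% of all genes fell and 1.36% rose, and the medians were -1.59 and 0.10. In high against low cells 8 fell and 0 rose, where 3.89% of all genes fell and 1.01% rose, and the medians were -3.29 and 0.13. The genes that missed were Cd247 and Cd8b1 each time, with Ccl5 in low against negative and Il2rb in high against negative. Both comparisons against negative cells use the same negative arrays, and all 3 comparisons share the estimate of the spread.

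**Figure D2:**
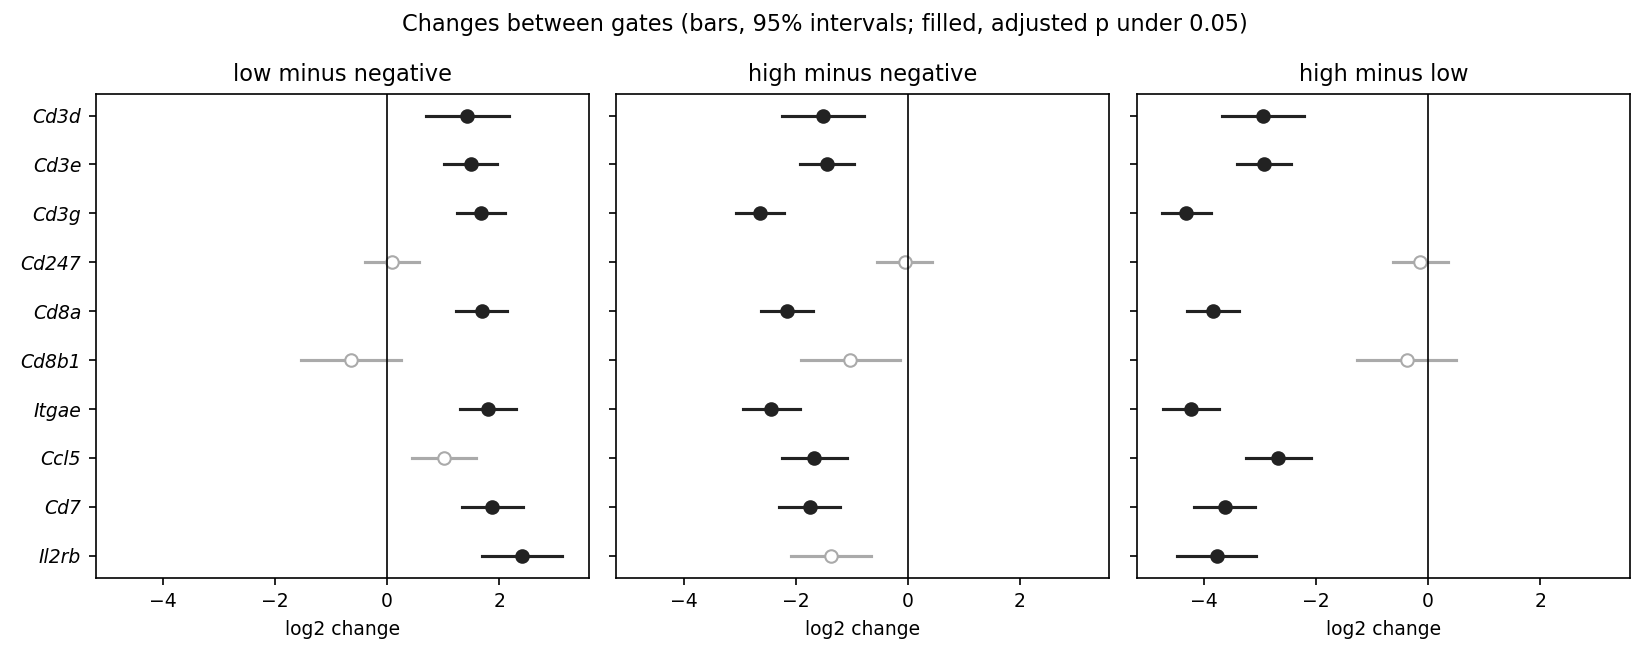
Log2 change of each gene in low minus negative, high minus negative and high minus low cells (points) with 95% intervals (bars); filled points have an adjusted p under 0.05. Filled points number 7, 7 and 8, and the Cd247 intervals include 0 in every panel.

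The calls against negative cells rested on both negative arrays, and so did those of all genes. Without either of them, which leaves 1 array in that gate, few or none of the 10 genes passed. Calls over all genes also fell steeply in both comparisons. Without either low array, calls in low against negative were fewer as well, for the 10 genes and for all genes. The 6 fits that leave out 1 array have fewer arrays to estimate the spread. Over these fits the change in low against negative ranged 1.60 to 1.76 for Cd3g, 1.59 to 1.79 for Cd8a and 1.63 to 1.98 for Itgae. In high against negative it ranged from -2.71 to -2.56 for Cd3g, from -2.27 to -2.02 for Cd8a and from -2.60 to -2.26 for Itgae. In high against low the count was 8 under each of the 17 alternatives run, including the 6 that leave out 1 array.

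The pattern was shared by genes outside the set. Likeness was measured as Pearson's r over the 6 arrays with the mean of the 10 genes, each centred on its own mean, among 12881 other genes above background on average. The mean pattern itself was -1.64 and -1.35 in high cells, 1.32 and 1.46 in low cells and -0.01 and 0.22 in negative cells. The 8 genes most alike, with r from 0.995 to 0.998, were Fnbp1, Trgv1, Wipf1, Mrtfb, Lcp2, Ptprc, Ctsw and Uhmk1. Of the 10 genes, 8 had an r between 0.968 and 0.996, while Cd247 had 0.422 and Cd8b1 0.364. Each of the 10 is part of the mean, so their r values are not comparable with those of the genes outside. The 6 points fall into 3 gates, so these values describe the order of the gates and carry no test.

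Trgv1, a variable segment of the T cell receptor gamma chain, read 4.77 and 5.31 in high cells, 9.25 on both low arrays and 7.47 and 7.68 in negative cells. Ctsw, a cathepsin of cytotoxic lymphocytes, read 5.15 and 5.60 in high cells, 9.37 and 9.03 in low cells and 7.37 and 7.69 in negative cells. Both spanned several log2 units. Mrtfb and Uhmk1 had the same order over a narrow range and passed no test, Mrtfb reading 6.47 and 6.59 in high cells, 7.25 and 7.28 in low cells and 6.97 and 7.0 in negative cells.

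**Figure D3:**
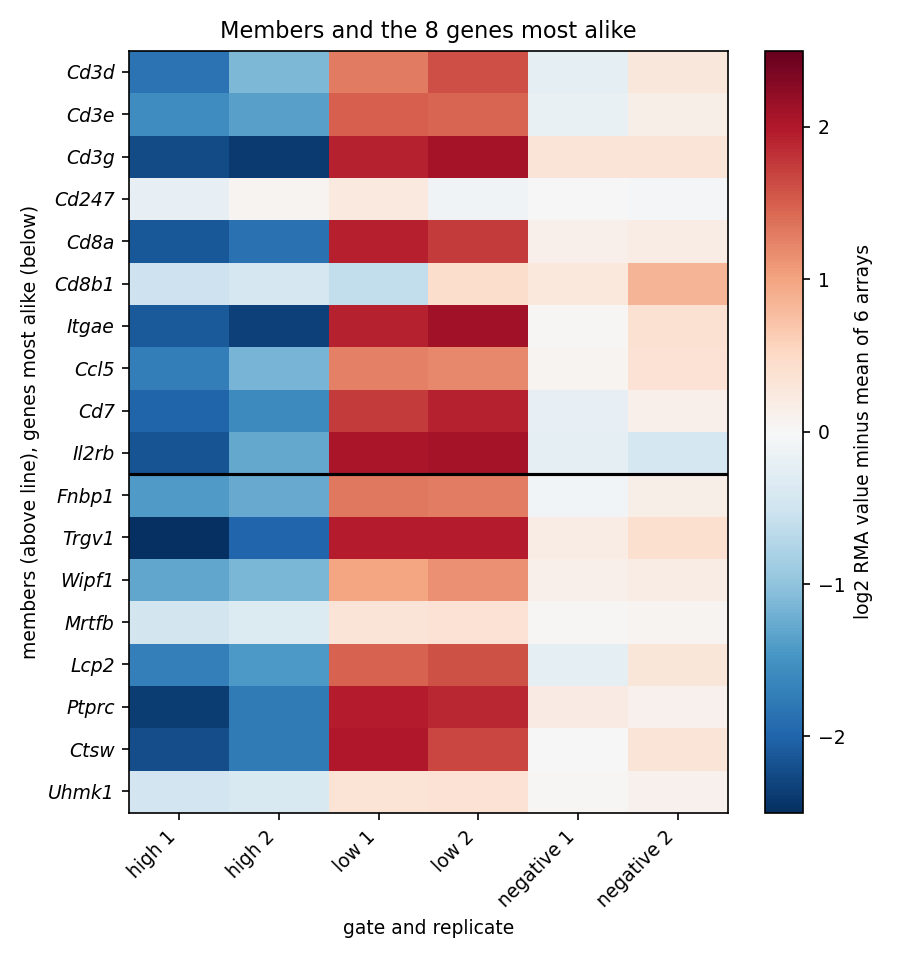
Log2 RMA value minus the mean of the 6 arrays for the 10 genes (above the line) and the 8 genes most alike (below), with arrays ordered high, low and negative. Red is above and blue below a gene's mean. Cd247 and Cd8b1 are the rows without the order of the others, low above negative above high. Mrtfb and Uhmk1 have that order in faint colours only.

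Genes that act downstream of the receptor changed in part. Of 31 signalling genes measured, 5 rose in low against negative and 0 fell, where 3.42% of all genes rose, with a median log2 change of 0.40. They were Txk, Trat1, Ptpn6 and Lcp2, and Ptpn22, which was named after its values were seen. In high against negative 3 fell and 0 rose (median -0.08), where 3.35% of all genes fell. The 3 were Lcp2 and, named after their values were seen, Lat and Fyn. In high against low 10 fell and 0 rose (median -0.82), where 3.89% of all genes fell. Without either negative array, calls of these genes against negative cells were fewer, as were those of all genes. Without either low array fewer rose in low against negative, again as over all genes. In high against low, 5 to 10 fell without any 1 array.

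Lcp2, the adaptor SLP-76 that links the proximal kinases to calcium signalling, followed the CD3 genes. It read 5.71 and 6.00 in high cells, 8.91 and 9.01 in low cells and 7.18 and 7.73 in negative cells. Txk, a Tec family kinase, read 4.63 and 4.23 in high cells, 7.05 and 6.76 in low cells and 4.31 and 4.44 in negative cells. Its high and negative arrays overlapped, near the background level, and low cells were above negative cells by 2.53 ± 0.22 (SE; limma adjusted p = 0.00251). Ptpn6, the phosphatase SHP-1, rose by 1.23 ± 0.20 in low against negative (adjusted p = 0.0171). Trat1, an adaptor of the receptor complex, was above background in low cells only, with a log2 increase of at least 0.44 over the background level (adjusted p = 0.0126).

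The ligands and partner chains of the intraepithelial markers form a list too small to set its calls apart from the shares of all genes. Of 12 measured, 4 were at or below background on every array. In low against negative 1 rose, the cytokine receptor kinase Jak1 (0.96 ± 0.19, SE, limma adjusted p = 0.0320), where 3.42% of all genes rose. None changed between high and negative cells (0 of 12), where 1.36% of all genes rose and 3.35% fell. In high against low cells 1 fell, Itgb7, where 3.89% of all genes fell. Itgb7, the beta chain that pairs with alpha E, read 5.05 and 5.26 in high cells, 6.33 and 6.55 in low cells and 5.62 and 6.02 in negative cells. Its order matched that of Itgae over a smaller range, with log2 changes of 0.62 ± 0.22 in low against negative (adjusted p = 0.184) and -1.28 ± 0.22 in high against low (adjusted p = 0.0242). Without any 1 low or negative array, 0 of the 12 passed in low against negative or in high against low. Cdh1, which encodes the alpha E ligand E-cadherin and was named outside the rule, read 9.82 and 9.52 in high cells, 10.18 and 10.01 in low cells and 10.05 and 9.97 in negative cells.

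Of 16 genes of homing and tissue residence, 7 rose and 1 fell in low against negative (median 1.01). In high against negative 2 fell (Cxcr6 and Cd69, median -0.65) and in high against low 9 fell (median -1.87). Of all genes, 3.42% rose and 2.54% fell in low against negative, 3.35% fell in high against negative and 3.89% fell in high against low. The gene that fell in low cells was Ccl25, an epithelial chemokine that attracts gut-homing lymphocytes. Without negative replicate 1 or 2, 0 changed in either comparison against negative cells, without low replicate 1 or 2, 4 and 1 rose in low against negative, and without any 1 array 6 to 9 fell in high against low. Cxcr6, a chemokine receptor of tissue-resident T cells, read 4.83 and 5.29 in high cells, 7.82 and 7.58 in low cells and 6.14 and 6.07 in negative cells. Its gates were in the order of the CD3 genes, with log2 changes of 1.59 ± 0.22 in low against negative (SE; limma adjusted p = 0.0109) and -1.05 ± 0.22 in high against negative (adjusted p = 0.0492). That last call was lost under 12 of 17 alternatives, among them the fit with the replicate number as a block (adjusted p = 0.0618). Itga4, an integrin chain used in gut homing, rose by 1.82 ± 0.20 in low against negative (adjusted p = 0.00517), and its change in high against negative was -0.46 ± 0.20 (adjusted p = 0.241).

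Markers of other cells moved with the gates as well. For these lists, levels are given as the sum over the list of RMA values taken back to the linear scale, per array. Their calls stand beside those of all 19938 genes, of which 3.42% were higher and 2.54% lower in low than in negative cells. High cells had 1.36% of genes higher and 3.35% lower than negative cells. Compared with low cells, they had 1.01% higher and 3.89% lower. No list was tested against these shares, and single calls in a short list cannot be set apart from them. Pan-leukocyte genes, 11 in all, summed to 685 and 901 in high cells, 6611 and 7260 in low cells and 3020 and 3582 in negative cells. They were in the order of the CD3 genes. Of them Ptprc, Lcp1, Arhgdib and Cytip rose in low against negative, 7 fell in high against negative and 10 fell in high against low. Ptprc, the leukocyte surface protein CD45, read 5.11 and 5.72 in high cells, 9.46 and 9.37 in low cells and 7.69 and 7.61 in negative cells. Leaving out any 1 low or negative array left 0 that rose in low against negative, and leaving out either high array gave 7. Without either negative array 0 or 1 fell in high against negative, while 8 to 10 fell in high against low without any 1 array.

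Natural killer and cytotoxic genes, 15 in all, summed to 1104 and 1215 in high cells, 9061 and 9526 in low cells and 2795 and 3457 in negative cells. Of them Klre1, Nkg7, Gzmb, Fasl and Cd244a rose in low against negative, Nkg7, Gzma and Gzmb fell in high against negative and 7 fell in high against low, and 3 were at or below background on every array. Without either negative array 0 or 1 rose and 0 fell against negative cells, without low replicate 1 or 2, 3 and 2 rose, and without low replicate 2, 4 fell in high against low. Intraepithelial T cells express many of these genes too. Gzmb, the cytotoxic protease granzyme B, read 7.70 and 8.31 in high cells, 11.18 and 11.22 in low cells and 9.53 and 9.62 in negative cells. Myeloid genes, 15 in all, summed to 1003 and 1055 in high cells, 3637 and 4158 in low cells and 1051 and 1128 in negative cells. The high and negative sums were close, and the list median in high against negative was 0.20. Yet 2 myeloid genes, Tyrobp and Fcer1g, had the order of the CD3 genes and fell in high against negative. These 2 made up most of the low sums. Tyrobp read 6.43 and 7.11 in high cells, 10.62 and 10.45 in low cells and 8.11 and 8.35 in negative cells. Itgax and C1qa also rose in low against negative but did not pass in high against negative (limma adjusted p = 0.822 and 0.504). Means in high, low and negative cells were 4.43, 6.42 and 4.53 for Itgax and 4.85, 5.94 and 4.61 for C1qa. Of the 15 genes, 7 rose in low against negative and 5 fell in high against low. Without either negative array 0 or 2 myeloid genes rose in low cells and 0 fell against negative in high cells, and without low replicate 1 or 2, 4 and 2 rose. The falls in high against low numbered 2 or 3 without any 1 low or negative array and 3 without high replicate 2.

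The summed level of helper and naive T cell genes lacked the order of the CD3 genes, but it rested largely on Zbtb7b. The 8 measured summed to 411 and 468 in high cells, 360 and 363 in low cells and 548 and 568 in negative cells, with 1 fall in low against negative and 0 changes in the other comparisons. Cd4, the coreceptor of helper T cells, read 4.30 and 5.25 in high cells, 3.87 and 4.44 in low cells and 4.07 and 5.07 in negative cells, around the background level. Lef1 and Il7r were also near that level, with means in high, low and negative cells of 4.72, 4.46 and 4.23 for Lef1. Those of Il7r were 3.58, 4.19 and 4.47. Zbtb7b, a factor that directs the CD4 lineage but is not limited to T cells, was the gene that fell (-1.0 ± 0.18, SE; limma adjusted p = 0.0275). It lost that call without any 1 low or negative array (adjusted p from 0.0910 to 0.192).

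B cell, plasma cell and mast cell genes that fell did so against the negative gate. The 9 B cell genes summed to 198 and 221 in high cells, 251 and 256 in low cells and 376 and 510 in negative cells, of which Cd79a and Blnk fell in low against negative cells, Cd79b and Blnk fell in high against negative cells and 0 changed between high and low cells. With either negative array left out, 0 passed. Of 7 plasma cell genes, Jchain, the joining chain of secreted antibodies, was the 1 that fell in both comparisons against negative cells, reading 3.74 and 3.78 in high cells, 3.93 and 4.22 in low cells and 6.93 and 7.04 in negative cells. Of 8 mast cell genes, 5 were at or below background on every array. The proteases Mcpt1 and Mcpt2 fell, and Kit, which is not limited to mast cells, rose, in both comparisons against negative cells. Of these 3 calls, 1 or 0 were left in low cells and 0 in high cells without either negative array, while that of Jchain stayed without any 1 array.

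Transcript levels of epithelial marker lists differed between the gates beside these changes. The 8 enteroendocrine genes summed to 604 and 1384 in high cells, 17481 and 19963 in low cells and 280 and 323 in negative cells, and all 8 rose in low against negative. The 8 Paneth cell genes summed to 45197 and 52292 in high cells, 32941 and 36392 in low cells and 5488 and 7097 in negative cells, and all 8 rose in both comparisons against negative cells. The 10 general epithelial genes summed to 7850 and 12554 in high cells, 13711 and 13806 in low cells and 19853 and 20034 in negative cells. The CD3 genes had the order of the pan-leukocyte and cytotoxic sums, and none of the 3 epithelial sums had that order. The epithelial keratin gene Krt20 did have it, reading 8.39 and 7.97 in high cells, 10.70 and 10.52 in low cells and 9.78 and 9.98 in negative cells. Krt20 and Lgals4 were the general epithelial genes that fell in high against negative, Krt20 by a log2 change of -1.70 ± 0.22 (SE; limma adjusted p = 0.0164), and Krt20 also fell in high against low (-2.43 ± 0.22, adjusted p = 0.00216). Without either negative array 0 of the 10 fell in high against negative, and without high replicate 1, 6 did and 4 fell in high against low. The part of any of these cell types in the changes of the 10 genes was not tested.

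**Figure D4:**
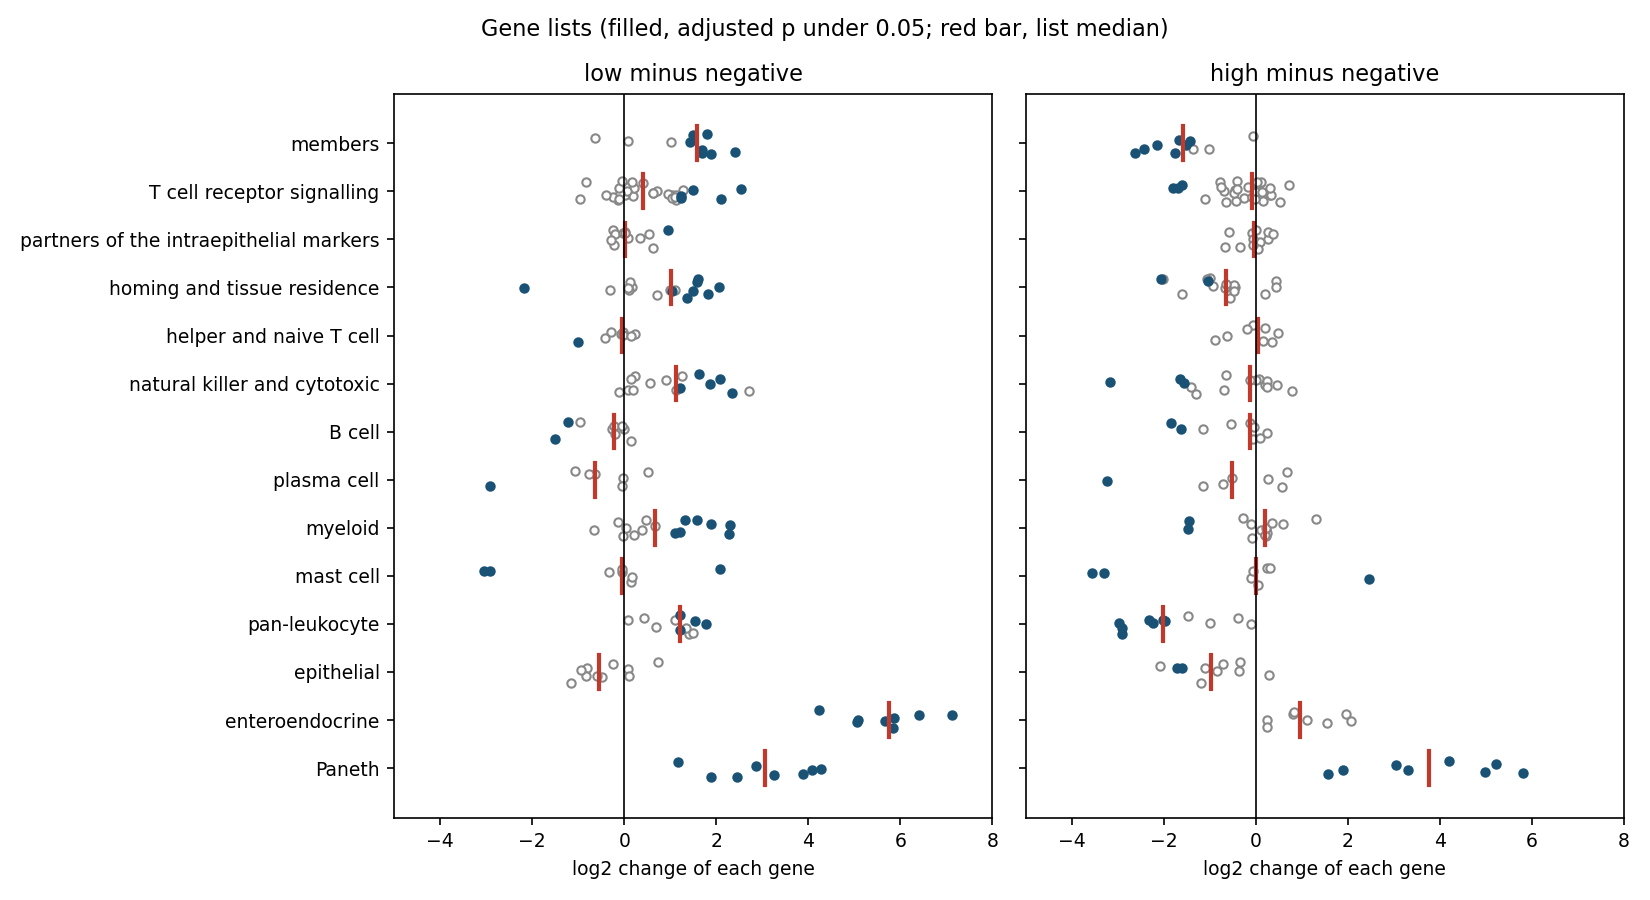
Log2 change of each gene of a list in low minus negative and high minus negative cells; filled points have an adjusted p under 0.05 and red bars are list medians. The 10 genes are the top row (members), with medians of 1.59 and -1.59, and pan-leukocyte genes lie on the same sides with medians of 1.22 and -2.02.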

How the data were processed

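Per the submitters' processing notes, the authors ran RMA in Affymetrix Expression Console 1.3.0.187 to make the deposited log2 values. The scale was inferred from their range, 1.90 to 14.0. For 12 of the 18 samples, which belong to a lineage-tracing line, the columns are empty here, so they were not analysed. Genes were named from the platform annotation, updated by gene ID through the GRCm38.p6 table, using 21789 of 35556 probe sets with 1 symbol. For 999 genes with several probe sets, that with the highest mean was used, leaving 19938 genes.

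Genes were fitted with limma 3.58.1 (lmFit and eBayes; R 4.3.3) over 6 arrays as 3 group means, with 3 residual degrees of freedom, two-sided tests and Benjamini-Hochberg adjustment over all genes. Replicates are pools of 2 animals, so p-values measure the spread between pools. The number of arrays limits the precision. The background level is the 95th percentile of the mean values of 1207 odorant, pheromone and trace amine receptor genes.

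The 10 genes and the lists were chosen with earlier results of these data known. Named genes are the 10, Cfap126, the 8 most alike and, of each list, up to 4 with the smallest p in low against negative. Named outside this rule are Epcam and Cdh1, taken as markers, and Ptpn22, Lat, Fyn, Cd69, Ccl25, Nkg7 and Gzma, chosen after their values were seen. T cell receptor chain genes of the fixed list, 5 promoters and all protein sequences were not analysed here. The fit was tested on simulated data. Alternatives covered the prior, arrays in the fit, array weights, scaling, the probe set rule, a dim-gene filter, thresholds, a replicate block and leaving out each array. Summaries and figures used Python 3.11.15, pandas 2.3.3, numpy 2.4.6 and matplotlib 3.10.9.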

Additional observations from a re-analysis of the deposited data

How the results depend on the processing

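Of 17 alternatives, 11 changed a setting and 6 left out 1 array. In high against low, 8 of the 10 genes passed in each. In low against negative the count of 7 was 0 to 8 without 1 array and 6 to 8 otherwise. In high against negative the count of 7 was 0 to 8 without 1 array, 4 after quantile normalization (Cd3g, Cd7, Cd8a and Itgae), 3 at an adjusted p under 0.01, and 6 to 8 otherwise. Quantile normalization also moved the split of all genes called, from 272 higher and 667 lower to 324 and 297 in high against negative, and from 202 and 776 to 326 and 616 in high against low. Over all genes, counts without 1 array ran from 187 to 1761 in low against negative, 13 to 1919 in high against negative and 381 to 1739 in high against low. In high against negative Cd3d lost its call under 9 alternatives and Il2rb gained one under 5. In low against negative Cd3d lost its call under 7 and Ccl5 gained one under 6. Of 22 calls of the 10 genes, 14 were lost under at least 1 alternative, as were 59 of 96 calls of other named genes, and 26 of 39 list counts moved by over 1.5 times under at least 1.

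Of the 10 genes and Cfap126, those that changed sign had passed no test. Without 1 array, Cd247 ranged from -0.0745 to 0.2495 in low against negative, from -0.1867 to 0.0848 in high against negative and from -0.3004 to 0.0236 in high against low, and after quantile normalization its values were 0.1425 (high against negative) and 0.0795 (high against low). Without 1 array, Cd8b1 ranged from -0.9164 to 0.1536 in high against low, and Cfap126 from -0.314 to 0.2841 in high against negative. The causes were not tested.

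The labels do not tie equal replicate numbers to shared animals, and differences between replicates correlated weakly between gates across genes (0.0788 to 0.103), so the arrays were not paired. With the replicate block, 7, 7 and 8 of the 10 genes passed in low against negative, high against negative and high against low. With 2 arrays a gate, changes near the background level are poorly resolved.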

Other observations

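T cell receptor segments were looked up by symbol prefix after the data were seen, and 9 were measured. Only Trgv1, a gamma variable segment, passed a test, and it passed in each comparison: the log2 change was 1.67 ± 0.23 (SE) in low against negative (limma adjusted p = 0.0106), -2.54 ± 0.23 in high against negative (adjusted p = 0.00682) and -4.21 ± 0.23 in high against low (adjusted p = 0.000582). Trdv2-2, a delta variable segment, read 3.26 and 3.93 in high cells, 5.09 and 6.32 in low cells and 3.82 and 4.63 in negative cells, and did not pass (adjusted p = 0.140 in low against negative). The other 7, alpha and beta variable segments, did not pass either. Of these, Trav14-1 read 3.49 and 3.38 in high cells, 5.59 and 4.19 in low cells and 2.93 and 3.49 in negative cells (adjusted p = 0.0826 in low against negative). Segments of a family are alike in sequence, so a probe set may read several, and these values are uncertain for that reason.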
